A study of Mus musculus with 17 samples.

Results

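Chemokine ligands are small secreted proteins that draw other leukocytes towards the cell that releases them, and CD8+ T cells, the cytotoxic lineage of T lymphocytes, are a source of several. The genes described here are Ccl5, Ccl4, Ccl3, Xcl1, Cxcl10 and Cxcl16, 6 of the 48709 genes listed in the count table, taken by symbol. Of these 6 genes, 5 had counts in CD8+ T cells from mouse brain and blood, and 3 (Ccl5, Ccl4 and Xcl1) had enough for a test across all genes. Ccl5 was the dominant ligand in every library. Of the 3 tested ligands Xcl1 was the one that was higher in brain than in blood. That difference passed the test in wild type mice but not in the APP-PS1 strain. Xcl1 averaged over the level needed for testing in brain only, so brain helped to choose it.

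The ligands act through receptors on other cells. CCL3, CCL4 and CCL5 attract T cells, monocytes and other phagocytes; CCL5 is kept ready for release in memory CD8+ T cells. XCL1 acts on XCR1, which marks the dendritic cells that are specialised in presenting antigen to CD8+ T cells. CXCL10 is induced by interferon and attracts T cells through CXCR3, while CXCL16 is made as a membrane-bound protein, is recognised by CXCR6 and is known mainly from myeloid and endothelial cells.

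The class names describe cysteines near the start of the mature protein: adjacent in CC ligands, separated by 1 residue in CXC ligands, and reduced to a single cysteine in Xcl1. Coding stretches of 5 of the genes that carry this difference are shown 5′ to 3′ on the coding strand, read from the GENCODE M21 transcripts on GRCm38, with the cysteine codons in capitals.
Ccl5: gacaccactcccTGCTGCtttgcctacctc
Ccl4: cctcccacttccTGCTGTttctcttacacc
Xcl1: gaagagagtagcTGTgtgaacttacaaacc
Cxcl10: aggacggtccgcTGCaacTGCatccatatc
Cxcl16: gtcgctggaagtTGTtctTGTgatcgtacc
Each stretch lies within a coding exon. The stretches are chr11:83529230-83529259 on the minus strand for Ccl5 and chr11:83663470-83663499 on the plus strand for Ccl4. Those of Xcl1, Cxcl10 and Cxcl16 lie on the minus strand at chr1:164932960-164932989, chr5:92348172-92348201 and chr11:70459118-70459147. On GRCm38 the genes span chr11:83525778-83530518 (Ccl5), chr11:83662584-83664683 (Ccl4), chr11:83647844-83649355 (Ccl3), chr1:164931644-164935527 (Xcl1), chr5:92346638-92348889 (Cxcl10) and chr11:70453983-70459984 (Cxcl16). Ccl3 and Ccl4 are neighbours, separated by 13.2 kb and read in opposite directions, and Ccl5 lies 117.3 kb from Ccl3. The coding sequences of Ccl3 and Ccl4 were 68.1% identical, and no stretch of 50 bases was shared between the transcripts of any pair of the 6 genes.

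RNA was sequenced from CD8+ T cells of 4 groups: 4 libraries from APP-PS1 brain, 3 from APP-PS1 blood, 5 from wild type (WT) brain and 5 from WT blood. APP-PS1 mice carry 2 transgenes, Mo/HuAPP695swe for a chimeric amyloid precursor protein and PS1-dE9 for a mutated human presenilin 1, each driven in neurons of the central nervous system by the prion protein promoter, and serve as an amyloid model of Alzheimer's disease. Of the APP-PS1 libraries, 3 of 4 from brain and 2 of 3 from blood came from males, while the 10 WT libraries came from females. The series' design text speaks of aged mice without an age, and names 7 APP-PS1 and 10 WT animals.

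Libraries were shallow, with 27646 to 127707 counts in APP-PS1 brain, 39055 to 46336 in APP-PS1 blood, 51161 to 169903 in WT brain and 62604 to 214670 in WT blood. All 12 genes of a T cell and CD8 list had counts in every group and summed to 9237 to 13570 CPM (counts scaled to the library total), and Cd4 had 0 counts. Of 14 microglial genes 3 to 5 had counts in a group, with sums of 0 to 219 CPM in a library, and Tmem119, P2ry12 and Sall1 were at 0. A list of 10 monocyte and macrophage genes summed to 651 to 836 CPM in APP-PS1 brain, 563 to 1338 CPM in APP-PS1 blood, 508 to 1210 CPM in WT brain and 958 to 1495 CPM in WT blood; Ly6c2, which memory CD8+ T cells also express, gave 1140 of its counts, and Cd14, Adgre1 and Fcgr1 were at 0. A list of 6 oligodendrocyte genes summed to 213 to 431 CPM in APP-PS1 brain and 243 to 435 CPM in APP-PS1 blood. It summed to 136 to 352 CPM in WT brain and 226 to 367 CPM in WT blood, so brain and blood overlapped. The counts came mostly from Cnp and Mbp, with Mog, Mobp and Mag at 0. These sums are of the order of the levels of Xcl1 and Ccl4, and their part in the results was not tested. A list of 7 red cell genes, of which 4 were detected and Alas2 and Slc4a1 were among those at 0, summed to 36.2 to 368 CPM in APP-PS1 brain and 2970 to 8071 CPM in APP-PS1 blood, and to 156 to 872 CPM in WT brain and 2152 to 9967 CPM in WT blood. Of the 17 libraries 2 stood apart from the rest, and results are also given without them: APP-PS1 brain replicate 1 was the shallowest and had the lowest correlation with its group (r = 0.706), and WT blood replicate 4, labelled female, had 1 count of Xist and 0 of Y-linked genes. No label says which libraries share an animal, so p-values measure the spread between these samples, part of which may be technical.

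Ccl5 was among the most abundant messages of these cells. It ranked second of all genes in 16 libraries and first in the remaining one, APP-PS1 blood replicate 1. In APP-PS1 brain the 4 libraries held 19786, 17363, 13581 and 25277 CPM of Ccl5, and in APP-PS1 blood the 3 libraries held 24120, 27970 and 26033 CPM. The WT brain libraries held 25247, 21760, 17005, 20395 and 19846 CPM, and the WT blood libraries 56864, 43249, 40305, 35205 and 39943 CPM. The WT blood libraries were thus above every other library, and APP-PS1 brain replicate 4 reached the range of APP-PS1 blood. Ccl5 made up 96.7 to 98.4% of the counts of the 6 ligands in APP-PS1 brain, 98.1 to 98.9% in APP-PS1 blood, 95.6 to 96.9% in WT brain and 98.6 to 99.9% in WT blood.

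**Figure D1:**
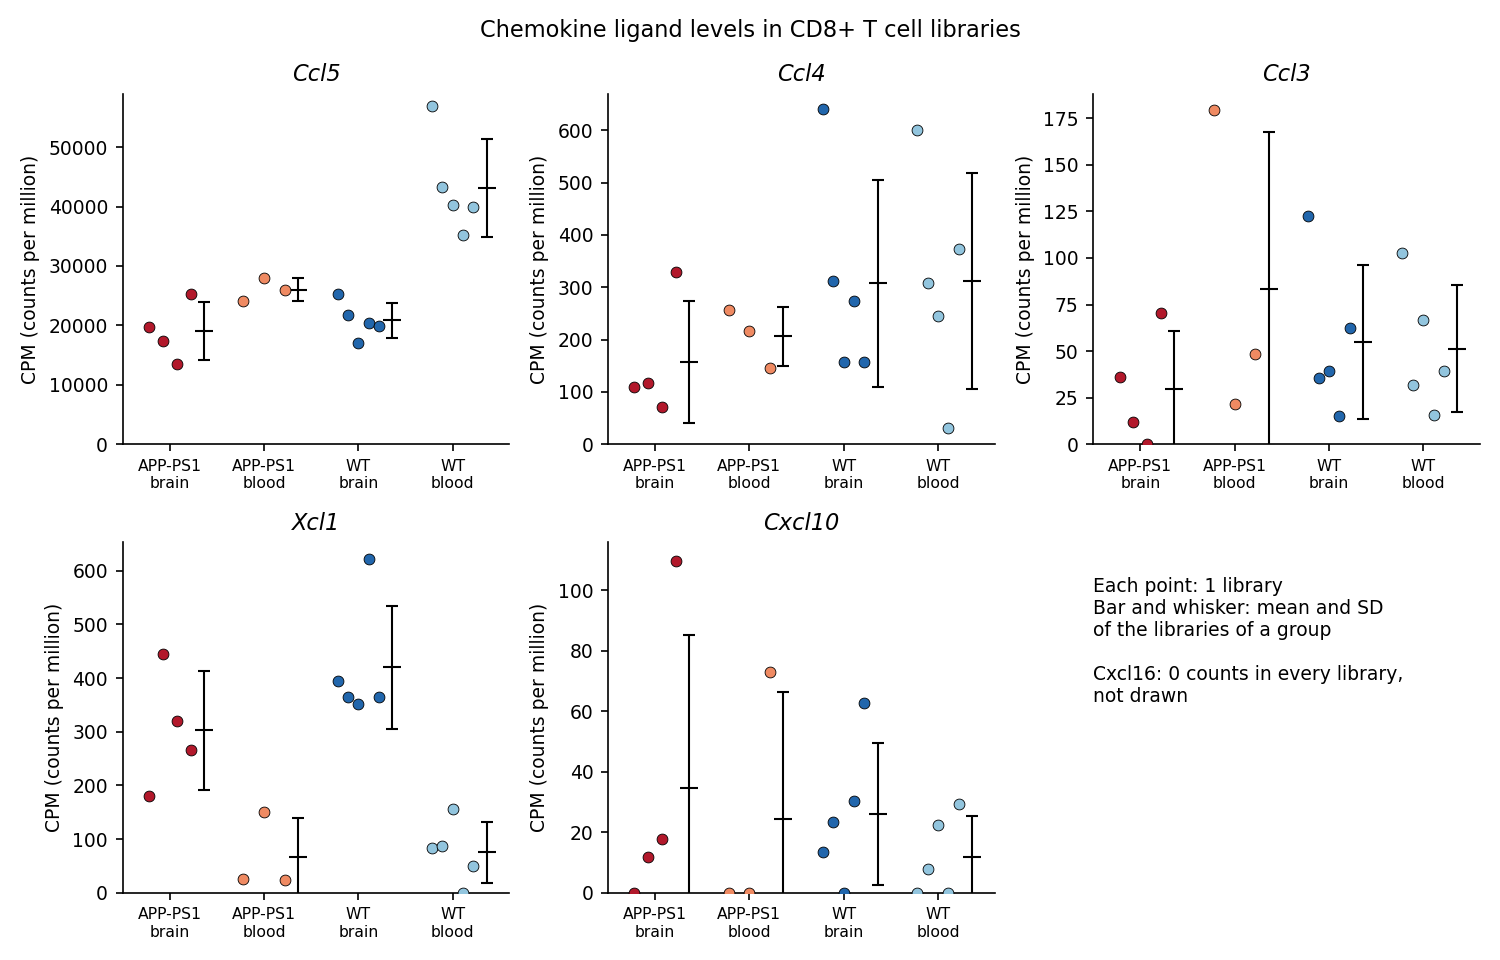
Level of each chemokine ligand in CPM (vertical axis, linear) in each library of the 4 groups; points are libraries, and the bar and whisker are mean and SD, with whiskers cut at 0. Ccl5 is highest in WT blood (35205 to 56864 CPM), and Xcl1 lies higher in brain than in blood in both strains, while the groups overlap for Ccl4, Ccl3 and Cxcl10.

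Between brain and blood, Ccl5 fell in WT mice. It averaged 20850 ± 3007 CPM over the brain libraries, against 43113 ± 8209 CPM over the blood libraries (SD, n = 5 libraries each). The log2 fold change was -1.11 (SE 0.19, 95% interval -1.49 to -0.74) and the adjusted p 0.000121 (edgeR quasi-likelihood, Benjamini-Hochberg over 2366 genes). In this comparison 0.761% of tested genes were called, 0.549% as lower in brain, and brain lay below blood without overlap for 1.14% of them. In APP-PS1 mice it averaged 19002 ± 4901 CPM (SD, n = 4 libraries) in brain, against 26041 ± 1925 CPM (SD, n = 3 libraries) in blood. The change of -0.48 on the log2 scale (SE 0.23) did not pass (edgeR adjusted p = 0.435; 0.549% of genes called). The test of whether the tissue difference itself differed between the strains gave 0.63 on the log2 scale (95% interval 0.04 to 1.22), with an unadjusted p of 0.0357 and an edgeR adjusted p of 0.945, so a difference was not shown; 0.0423% of genes were called there.

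Set against the 12 T cell and CD8 genes of the same library, a ratio that needs no scaling between libraries, Ccl5 had a median of 1.67 counts per T cell gene count in APP-PS1 brain and 2.61 in APP-PS1 blood. The ratio had a median of 1.80 in WT brain and 3.83 in WT blood. Its range was 1.13 to 2.28 in APP-PS1 brain and 2.48 to 3.03 in APP-PS1 blood, and 1.25 to 2.17 in WT brain and 3.11 to 5.07 in WT blood, so brain lay below blood without overlap in both strains by this ratio, as did 7.4% of tested genes in APP-PS1 and 1.48% in WT. The 12 genes themselves summed to 10330 to 12070 CPM in APP-PS1 brain, above the 9237 to 9975 CPM of APP-PS1 blood, where Ccl5 in CPM overlapped between the tissues. The ratio is a description chosen after the values were seen. In libraries of many cells, fewer cells that make a message cannot be told apart from less message per cell. Brain tissue was dissociated and cleared of myelin, whereas blood went through red cell lysis, so tissue and preparation cannot be told apart. The red cell sums were likewise lower in brain, and their part in the Ccl5 difference was not tested.

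Between strains, Ccl5 in blood was the ligand with the clearest separation, although it was not called. All 3 APP-PS1 blood libraries, at 24120 to 27970 CPM, lay below all 5 WT blood libraries, at 35205 to 56864 CPM. The log2 fold change was -0.82 (SE 0.22, 95% interval -1.26 to -0.37), with an unadjusted p of 0.000519, the seventh smallest of 2366 genes, and an edgeR adjusted p of 0.176; 0.0423% of genes were called, and 3.68% lay lower in APP-PS1 blood without overlap. The call changed with the settings. It passed in edgeR without a filter on low counts (-1.10, adjusted p = 0.0359), with the filter lowered to 5 CPM in 3 libraries (-1.10, adjusted p = 0.0256), and in limma voom with quality weights (-0.84, adjusted p = 0.0150). The median of all genes itself stood at -0.40 without the filter and at -0.47 with 5 CPM, against -0.05 as reported.

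Depth and sex ran alongside this comparison. Every APP-PS1 blood library was shallower than every WT blood library. After thinning of all libraries to 27646 counts, which left 675 genes tested, Ccl5 was at -0.76 (edgeR adjusted p = 0.0257). The single female APP-PS1 blood library held 26033 CPM and lay below the 5 female WT blood libraries. With sex as a term in the edgeR fit the value was -0.55 (adjusted p = 0.933), and with female libraries only it was -0.88 (adjusted p = 0.637), in which a lone APP-PS1 library is assumed to vary like the others. Without both libraries that stood apart it was -0.88 (edgeR adjusted p = 0.0616). In brain, the strains overlapped: Ccl5 had a log2 fold change of -0.18 (SE 0.20, edgeR adjusted p = 0.999), and 0% of 2366 genes were called by edgeR, DESeq2 or voom, with 98 at an unadjusted edgeR p under 0.05.

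**Figure D2:**
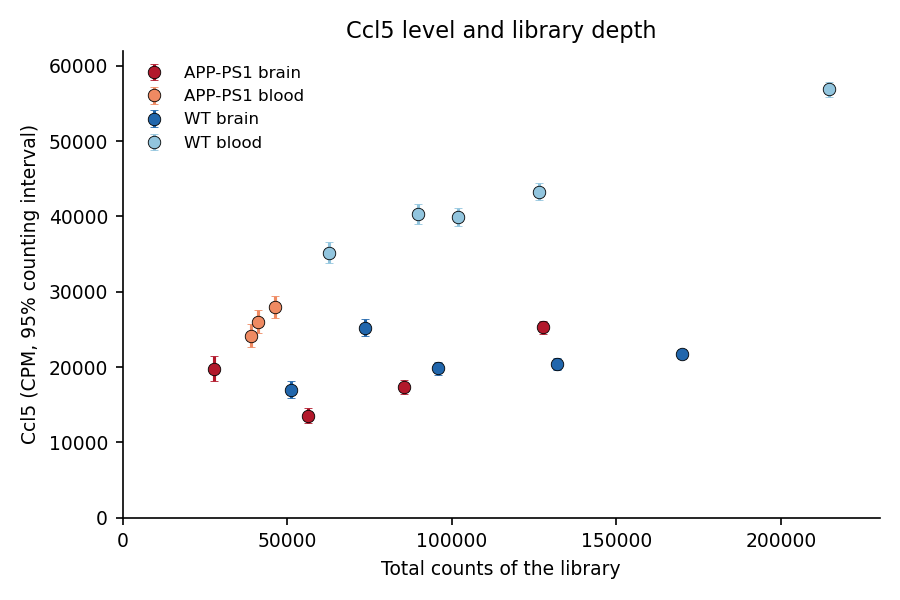
Ccl5 level in CPM (vertical axis, with 95% exact binomial counting intervals) against the total counts of each library (horizontal axis). There is 1 point per library, coloured by group. The 3 APP-PS1 blood libraries are both shallower and lower in Ccl5 than the 5 WT blood libraries, and the brain libraries stay at or below 25277 CPM across the depths they span.

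Ccl4 and Ccl3, the other CC ligands, encode macrophage inflammatory proteins that activated CD8+ T cells release soon after stimulation. Ccl4 had 109, 117, 71.1 and 329 CPM in APP-PS1 brain and 256, 216 and 146 CPM in APP-PS1 blood. It had 640, 312, 156, 273 and 157 CPM in WT brain and 601, 308, 245, 31.9 and 373 CPM in WT blood. The groups overlapped in every comparison, and single libraries of 1 group differed by several times. Ccl4 was not called in any of the 4 comparisons by edgeR's quasi-likelihood test. The log2 fold change between brain and blood was -0.23 in APP-PS1 (95% interval -1.65 to 1.19, adjusted p = 0.950) and -0.15 in WT (-1.10 to 0.80, adjusted p = 0.984). Between APP-PS1 and WT it was -0.84 in brain (-1.96 to 0.27, adjusted p = 0.999) and -0.77 in blood (-2.05 to 0.52, adjusted p = 0.804). Each of these intervals reaches below -1, so none is narrow enough to leave out a clear fall.

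Ccl3 was low, with 83 counts in all, and lay under the filter. APP-PS1 brain held 1, 1, 0 and 9 counts and APP-PS1 blood 7, 1 and 2 counts. WT brain held 9, 6, 2, 2 and 6 counts and WT blood 22, 4, 6, 1 and 4 counts. Means were 29.6 ± 31.1 CPM (SD, n = 4 libraries) in APP-PS1 brain, 83.2 ± 84.3 CPM (SD, n = 3 libraries) in APP-PS1 blood, 54.9 ± 41.4 CPM (SD, n = 5 libraries) in WT brain and 51.3 ± 34.1 CPM (SD, n = 5 libraries) in WT blood. A single library, APP-PS1 blood replicate 1 with 179 CPM, set the high mean of its group. No comparison passed an exact two-sided permutation test (adjusted p of 0.907 or above over 8 tests of Ccl3 and Cxcl10). The smallest unadjusted p the design allows was 0.0571 for brain against blood in APP-PS1 and 0.00794 in WT. Between strains it was 0.0159 in brain and 0.0357 in blood. After adjustment over 8 tests a lone difference could not pass, so no conclusion is drawn.

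Ccl4 exceeded its neighbour Ccl3 per length of transcript in all 17 libraries, 9 from brain and 8 from blood. Pooled over a group, Ccl4 had 5.36 counts per Ccl3 count in APP-PS1 brain and 2.60 in APP-PS1 blood, and 6.36 in WT brain and 6.22 in WT blood. The APP-PS1 ratios rest on single libraries: brain had 8.5 without brain replicate 4, and blood 5.33 without blood replicate 1. The genes between Ccl5 and Ccl3 on chromosome 11 were almost silent: Ccl9 had 3 counts and Ccl6, a myeloid ligand, 1 count in all libraries together. On the log2 CPM scale Ccl4 and Ccl5 varied together within brain libraries (r = 0.908 over 9 libraries of both strains) and less closely within blood (r = 0.433 over 8), a description without a test in libraries that also differ in depth.

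**Figure D3:**
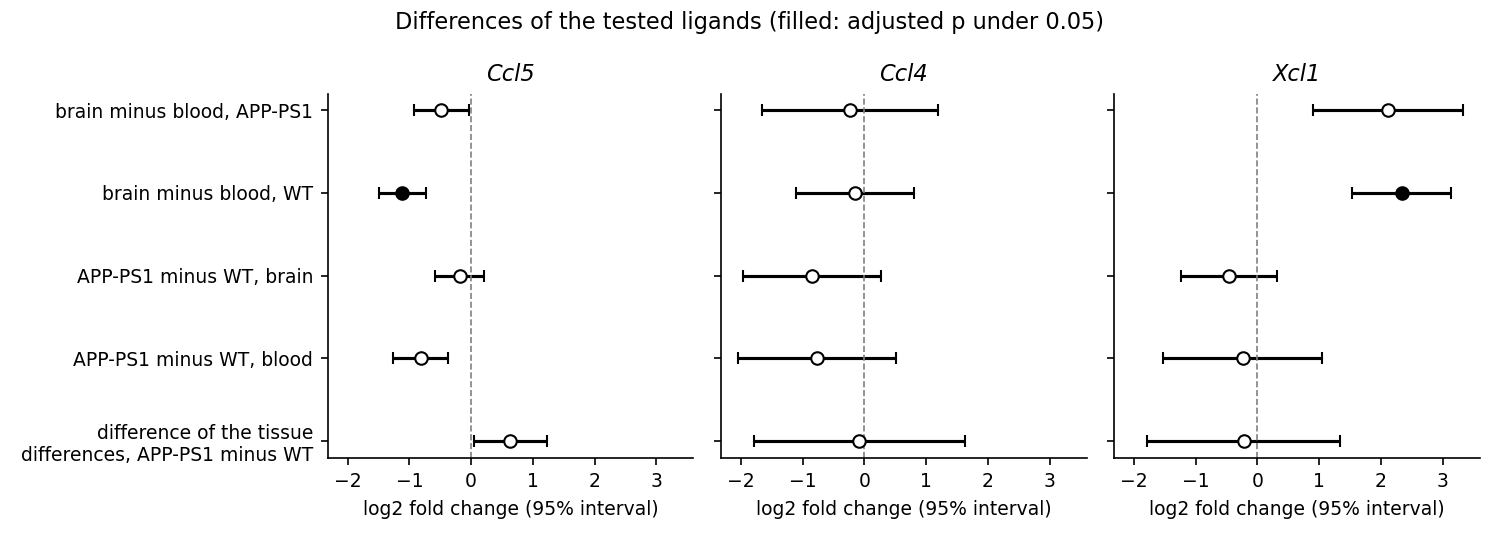
Log2 fold changes from edgeR with 95% intervals (horizontal axis) for Ccl5, Ccl4 and Xcl1, with 1 row per comparison; filled points had an adjusted p under 0.05. The filled points are Ccl5 (-1.11) and Xcl1 (2.34) between brain and blood in WT, and the 5 intervals of Ccl4 span 0. Xcl1 averaged over the level of the filter in brain only.

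Xcl1, also called lymphotactin, was higher in brain than in blood. The APP-PS1 brain libraries held 5, 38, 18 and 34 counts, or 181, 445, 320 and 266 CPM, and the APP-PS1 blood libraries held 1, 7 and 1 counts, or 25.6, 151 and 24.3 CPM. The WT brain libraries held 29, 62, 18, 82 and 35 counts, or 395, 365, 352, 622 and 365 CPM, and the WT blood libraries 18, 11, 14, 0 and 5 counts, or 0 to 156 CPM with a median of 83.8 CPM. Every brain library was above every blood library of either strain. The share of all genes separated in this way over both strains is not given here. APP-PS1 brain replicate 1, at 181 CPM from 5 counts, came nearest to blood. Its exact binomial counting interval was 58.7 to 422 CPM. That range held those of WT blood replicate 3 (85.3 to 262 CPM) and APP-PS1 blood replicate 2 (60.7 to 311 CPM).

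In APP-PS1 mice Xcl1 averaged 303 ± 111 CPM (SD, n = 4 libraries) in brain, against 67.0 ± 72.8 CPM (SD, n = 3 libraries) in blood. The log2 fold change was 2.11 (SE 0.61, 95% interval 0.90 to 3.33), and the edgeR adjusted p of 0.0816 missed the threshold; 5.07% of genes lay higher in APP-PS1 brain without overlap. It passed in DESeq2 (2.13, adjusted p = 0.0495), whose own filter gave 1284 of the 2366 genes no adjusted p there, in edgeR without APP-PS1 blood replicate 2 (3.64, adjusted p = 0.0244) and in edgeR without both libraries that stood apart (2.27, adjusted p = 0.0370). In WT mice Xcl1 stood at 420 ± 114 CPM in the brain libraries and at 75.2 ± 57.2 CPM in the blood libraries (SD, n = 5 libraries each), with a log2 fold change of 2.34 (edgeR adjusted p = 0.000121); 0.211% of genes were called as higher in WT brain, and 1.48% of genes lay higher there without overlap. In both strains Xcl1 averaged over the level of the filter, about 117 CPM, in brain only, so brain helped to choose it for these tests. The tissue differences of the 2 strains were not shown to differ (-0.22, 95% interval -1.79 to 1.34, edgeR adjusted p = 0.999).

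Averaged over strains, brain against blood gave 2.23 for Xcl1 (SE 0.36, edgeR adjusted p = 2.06e-05), -0.80 for Ccl5 (SE 0.15, adjusted p = 0.000249) and -0.19 for Ccl4 (SE 0.41, adjusted p = 0.918), where 2.62% of genes were called, 1.27% as higher and 1.35% as lower in brain. Of the 3 tested ligands, 1 rose, 1 fell and 1 was not called. With female libraries only, a lone library for each APP-PS1 tissue, the averaged Ccl5 value was -0.54 and not called. In that fit its value between APP-PS1 tissues turned to 0.054. Xcl1 averaged over 117 CPM, the level of the filter, in brain only, and so was tested through the tissue where it is high; without a filter the averaged value was 2.26 (edgeR adjusted p = 3.18e-07). Between APP-PS1 and WT, Xcl1 had -0.46 in brain (95% interval -1.24 to 0.32, edgeR adjusted p = 0.999) and -0.24 in blood (-1.53 to 1.05, adjusted p = 0.937), with overlapping groups in both. Natural killer cells also make Xcl1 and Ccl5. Of a list of 8 genes of such cells, Ncr1 was at 0 in all groups, and the sums were 35.6 to 399 CPM in APP-PS1 brain, 86.3 to 195 CPM in APP-PS1 blood, 106 to 386 CPM in WT brain and 176 to 759 CPM in WT blood. In neither strain were these sums higher throughout brain. They came mostly from Eomes (233 counts in all libraries) and Klre1 (149 counts). Tyrobp had 13 counts, Klrb1c 10, Klri2 10, Klra8 3 and Fcer1g 3. Of 5 gamma-delta T cell genes Trdc and Sox13 were at 0, and the other 3, Tcrg-C1, Tcrg-C2 and Tcrg-C4, gave sums of 340 to 579 CPM in APP-PS1 brain and 108 to 438 CPM in APP-PS1 blood, and 376 to 594 CPM in WT brain and 192 to 446 CPM in WT blood. The part of either list in the Xcl1 difference was not tested.

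The order of the ligands below Ccl5 differed with tissue. Per kilobase of transcript, Xcl1 was above Ccl4 in 8 of 9 brain libraries and in 0 of 8 blood libraries. The exception in brain was WT brain replicate 1, which had the highest Ccl4. In APP-PS1 brain replicate 4 the order turned on length, with Xcl1 at 509 and Ccl4 at 498 CPM per kb. Without length it had 266 CPM of Xcl1 and 329 CPM of Ccl4. Of the counts of the 5 ligands other than Ccl5, Xcl1 took 61.0 ± 20.5% (SD, n = 4 libraries) in APP-PS1 brain and 17.6 ± 18.5% (SD, n = 3 libraries) in APP-PS1 blood. It took 54.0 ± 13.1% (SD, n = 5 libraries) in WT brain and 14.5 ± 12.0% (SD, n = 5 libraries) in WT blood. The shares overlapped between the tissues of APP-PS1 mice, where brain replicate 4 had 34.3% and blood replicate 2 had 38.9%, and did not overlap in WT, where brain began at 33.7% and blood ended at 31.8%. WT blood replicate 4 had 0 of 3 counts, with an exact Clopper-Pearson 95% interval of 0 to 70.8%, so its share says little. The share was chosen after the values were seen and has no test. Intervals of this kind cover counting error only.

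**Figure D4:**
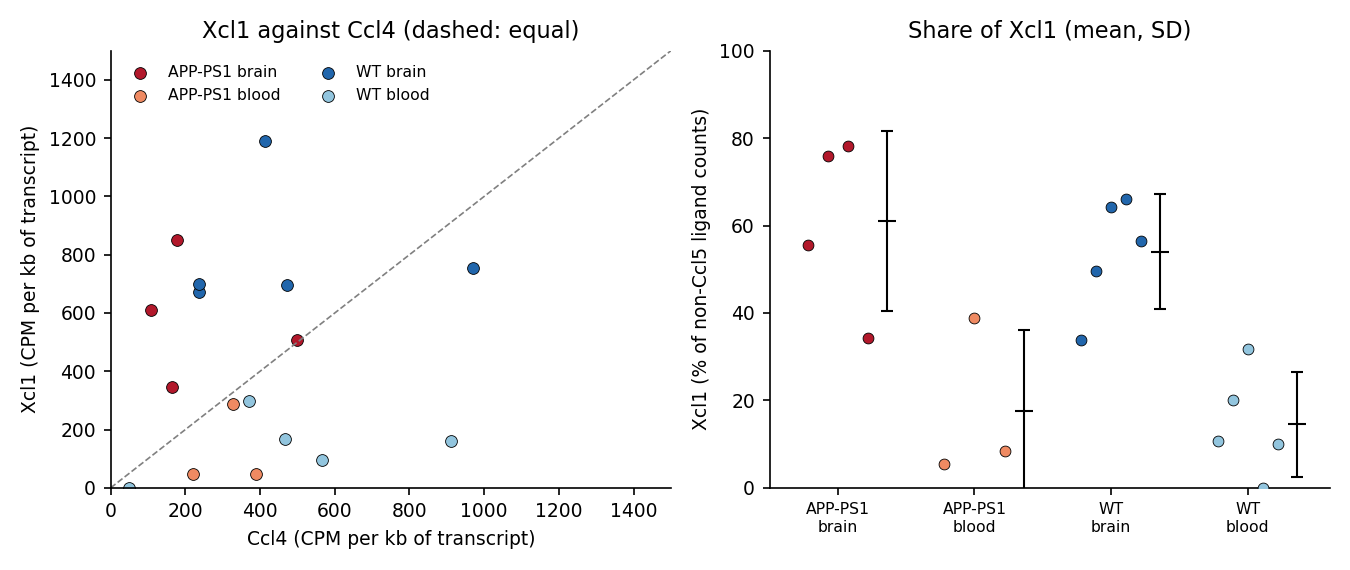
Left, Xcl1 against Ccl4 in CPM per kilobase of transcript, 1 point per library, with equality dashed; right, Xcl1 as a percentage of the counts of the 5 ligands other than Ccl5, with mean and SD (whiskers cut at 0). In the left panel 8 of 9 brain libraries lie above the dashed line and the 8 blood libraries below it; in the right panel the means are 61.0% and 17.6% in APP-PS1 brain and blood and 54.0% and 14.5% in WT brain and blood.

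Per kilobase of transcript the whole order in brain was Ccl5, then Xcl1, Ccl4, Ccl3 and Cxcl10. In APP-PS1 brain Ccl5 averaged 35718 ± 9212 CPM per kb, Xcl1 579 ± 211, Ccl4 237 ± 177, Ccl3 38.6 ± 40.7 and Cxcl10 31.8 ± 46.1 (SD, n = 4 libraries). In WT brain Xcl1 averaged 803 ± 218 and Ccl4 466 ± 300 CPM per kb (SD, n = 5 libraries). In APP-PS1 blood Ccl4 came second with 312 ± 84.4 CPM per kb, and Xcl1 with 128 ± 139 and Ccl3 with 109 ± 110 were within each other's spread (SD, n = 3 libraries). In WT blood Ccl4 averaged 473 ± 312, Xcl1 144 ± 109 and Ccl3 66.9 ± 44.5 CPM per kb (SD, n = 5 libraries). Ccl3 and Cxcl10 did not keep 1 order in brain, where Ccl3 was above Cxcl10 in 6 of 9 libraries.

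Of the CXC ligands, Cxcl10 had 40 counts in all and lay under the filter. APP-PS1 brain held 0, 1, 1 and 14 counts and APP-PS1 blood 0, 0 and 3 counts. WT brain held 1, 4, 0, 4 and 6 counts and WT blood 0, 1, 2, 0 and 3 counts. APP-PS1 brain replicate 4, the female library and the deepest of its group, thus held 14 of the 16 counts of that group, at 110 CPM. Means were 34.8 ± 50.4 CPM (SD, n = 4 libraries) in APP-PS1 brain and 26.0 ± 23.4 CPM (SD, n = 5 libraries) in WT brain. The exact two-sided permutation test did not show a difference (adjusted p = 0.907), but over 8 tests a lone difference could not pass. Without that library the difference, APP-PS1 brain minus WT brain, was -16.2 CPM.

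Cxcl16 had 0 counts in every library. A count of 0 allows up to 10.1 CPM pooled over APP-PS1 brain, 23.7 CPM over APP-PS1 blood, 5.75 CPM over WT brain and 5.04 CPM over WT blood, counting error only. Cxcl16 shares 552 exonic bases with Zmynd15 on the other strand, which also had 0 counts. For Cxcl10 the overlapping gene is Art3 (133 shared bases, 9 counts), and for Xcl1 it is Gm20743 (98 shared bases, 6 counts). Without a stated strand setting these pairs cannot be told apart, and Art3's 9 counts stand beside the 40 of Cxcl10, while the 6 of Gm20743 stand beside 378 of Xcl1.

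Upstream sequence was given for Ccl3, Xcl1 and Cxcl10 in the RefSeq promoter table (GRCm38.p6). Xcl1, the ligand that rose in brain, and Cxcl10, the interferon-induced one, are shown as the 250 bases before the RefSeq start, 5′ to 3′ on the gene's strand, with motif matches in capitals.
Xcl1: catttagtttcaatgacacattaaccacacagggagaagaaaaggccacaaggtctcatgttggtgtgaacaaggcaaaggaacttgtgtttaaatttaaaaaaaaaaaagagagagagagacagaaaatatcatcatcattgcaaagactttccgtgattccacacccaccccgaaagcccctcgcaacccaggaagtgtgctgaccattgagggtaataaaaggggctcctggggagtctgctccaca
Cxcl10: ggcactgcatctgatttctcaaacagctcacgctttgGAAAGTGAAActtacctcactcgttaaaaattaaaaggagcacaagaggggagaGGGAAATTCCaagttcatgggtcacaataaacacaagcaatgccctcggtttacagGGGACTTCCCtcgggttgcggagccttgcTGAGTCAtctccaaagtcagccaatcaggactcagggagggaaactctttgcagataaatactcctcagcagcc
The windows are chr1:164935523-164935772 and chr5:92348890-92349139, both on the minus strand. Both strands were searched for the NF-kB site, for the interferon-stimulated response element spelled GAAANNGAAA and for the AP-1 site spelled TGANTCA. Cxcl10 had 2 NF-kB matches, at 159 to 150 and 103 to 94 bases before its start, 1 interferon element at 213 to 204 and 1 AP-1 match at 74 to 68, with no overlap between them. Of 32851 promoter windows of the same length, 3.90% held the NF-kB site, 2.98% the interferon element and 6.75% the AP-1 site. In the windows of Xcl1 and Ccl3 these letters were not found, and a match or its absence is a description of the window alone.

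Other ligands were nearly absent. Of 32 further ligand genes of the CC, CXC and CX3C classes, 10 had any count, together 72 counts against 48879 for the 6 ligands above, and 0 passed the filter. Ccl1 had 11 counts in APP-PS1 brain replicate 4 and 2 in WT brain replicate 3, and 0 elsewhere. The platelet chemokines were as scarce: Pf4 had 5 counts in APP-PS1 blood, 1 in WT brain and 6 in WT blood, and Ppbp had 6 counts, all of them in WT blood.

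The receptors for these ligands were measured in the same cells. Cxcr6, the receptor for CXCL16, rose in brain in both strains, by 1.87 on the log2 scale in APP-PS1 (SE 0.40, edgeR adjusted p = 0.00671) and by 1.21 in WT (SE 0.28, adjusted p = 0.0130). Called genes made up 0.549% of those tested between APP-PS1 tissues and 0.761% between WT tissues. Cxcr6 held 693 to 960 CPM in APP-PS1 brain against 151 to 341 CPM in APP-PS1 blood. In WT it held 518 to 1231 CPM in brain against 178 to 471 CPM in blood. The tissues thus did not overlap, as for 5.07% of tested genes higher in APP-PS1 brain and 1.48% in WT brain. The APP-PS1 call was lost without APP-PS1 blood replicate 2 (adjusted p = 0.0961), and the WT call without WT brain replicate 3 or WT blood replicate 2 or 3 (adjusted p up to 0.0965). With female libraries only, a lone library for each APP-PS1 tissue, the APP-PS1 value was 1.53 and not called. Without a filter the WT value was 1.12 (edgeR adjusted p = 0.145). After thinning neither strain's value was called (1.56 in APP-PS1 and 1.01 in WT, edgeR adjusted p = 0.0881 and 0.288). Its ligand gene Cxcl16 was at 0 in these libraries. Cxcr3, the receptor for CXCL10, had 0.26 in APP-PS1 and 0.77 in WT between brain and blood and was not called (edgeR adjusted p = 0.914 and 0.534). Xcr1, the receptor for XCL1, had 0 counts in both APP-PS1 groups, 4 in WT brain and 8 in WT blood. Of the 8 receptors listed for the 6 ligands, 6 had a count and 2 were tested, of which Cxcr6 was called.

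Of 20 transcription factors known to act on chemokine genes, 11 were tested, and edgeR, DESeq2 and voom called 0 of them in each of the 4 comparisons, although DESeq2 gave 6 of the 11 no adjusted p between APP-PS1 tissues. At an unadjusted edgeR p under 0.05 there was 1 of the 11 between APP-PS1 tissues and 1 between the strains in blood. Of all 2366 tested genes, 254 and 190 were under 0.05 in the same comparisons. Of the 11, 4 averaged over the level of the filter in brain only, so without a filter all 20 were set side by side. Between brain and blood, 15 were positive in APP-PS1 and 13 in WT. The median log2 fold change was 0.77 in APP-PS1 and 0.29 in WT, against 0.01 and 0 over all genes with a count. For the 19 kept with 5 CPM in 3 libraries it was 0.79 and 0.35, against 0.30 and 0.03 over all genes kept. Runx3, a factor of the CD8 lineage, had 1.15 in APP-PS1 and 0.59 in WT (edgeR adjusted p = 0.518 and 0.776). Klf13, known in human T cells as a late activator of the CCL5 gene, had -0.89 in APP-PS1 and -0.38 in WT (edgeR adjusted p = 0.287 and 0.802).

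Of 14 interferon-induced genes that accompany Cxcl10, 8 were tested, of which 6 averaged over the level of the filter in brain only, so that brain helped to choose them. Without a filter all 14 had a value, and 13 in APP-PS1 and 12 in WT were positive between brain and blood. Their median log2 fold change was 2.65 in APP-PS1 and 1.34 in WT, against 0.01 and 0 over all genes with a count. With 5 CPM in 3 libraries it was 2.67 and 1.36, against 0.30 and 0.03 over all genes kept. Isg20, an exonuclease, was the 1 called gene in each strain, at 3.49 in APP-PS1 (edgeR adjusted p = 0.00734) and 2.34 in WT (edgeR adjusted p = 0.000880). It averaged 280 CPM in APP-PS1 brain and 256 CPM in WT brain, against 23.8 and 45.5 CPM in blood. Isg20 was thus also tested through brain. Voom called 0 of the 8 in APP-PS1, against 6 at an unadjusted edgeR p under 0.05 (254 of all 2366 tested genes). The Isg20 call in APP-PS1 was lost without APP-PS1 blood replicate 2 (edgeR adjusted p = 0.0701). With female libraries only, a lone library for each APP-PS1 tissue, it was at 3.72 in APP-PS1 and not called. In WT, DESeq2 called Isg15, a ubiquitin-like protein, besides Isg20. Averaged over strains 6 of the 8 were called as higher in brain, beside 1.27% of all tested genes. Since brain helped to choose these 8, that count is a description. It was 2 with voom, 4 without both libraries that stood apart and 4 of 14 without a filter. Between APP-PS1 and WT 0 of the 8 were called by edgeR, DESeq2 or voom, with medians of 0.06 in brain and -0.28 in blood. At an unadjusted edgeR p under 0.05 there were 1 in brain and 0 in blood, beside 98 and 190 of all 2366 tested genes.

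Among 20 other secreted and granule products of activated CD8+ T cells, 11 were tested. The single call between WT brain and WT blood was granzyme M (Gzmm), which fell by 3.49 on the log2 scale (edgeR adjusted p = 0.000481). Gzmm averaged over the level of the filter in blood only. At an unadjusted edgeR p under 0.05 there were 4 of the 11 in WT, beside 172 of all 2366 tested genes. DESeq2 called Gzma, granzyme A, besides Gzmm in WT. In APP-PS1, 0 were called by edgeR or voom, or by DESeq2 among the 8 to which it gave an adjusted p. There 3 of the 11 had an unadjusted edgeR p under 0.05, beside 254 of all tested genes. Gzmm was at -2.97 in APP-PS1 (edgeR adjusted p = 0.0535). It was called there with RLE size factors (edgeR adjusted p = 0.0472) and with sex as a term (edgeR adjusted p = 0.0491). Averaged over strains 2 were called as lower in brain, Gzmm at -3.23 and Ctla2a, a protease inhibitor, at -0.93 (edgeR adjusted p = 1.21e-05 and 0.0100), beside 1.35% of all tested genes. The Ctla2a call was lost without a filter (edgeR adjusted p = 0.0560) and after thinning (edgeR adjusted p = 0.213). It was also lost with female libraries only (-0.51), a fit with a lone library for each APP-PS1 tissue. Nkg7, a granule membrane protein, had 0.22 in APP-PS1 and 0.02 in WT between brain and blood (edgeR adjusted p = 0.812 and 0.996). The median of the list was 0.22 in APP-PS1 and -0.01 in WT.

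The tested genes whose log2 CPM was most like that of a ligand over the 17 libraries were listed as a description, since tissue, depth and scaling are shared by all points. For Ccl5 these were Ndufa11 (r = 0.795), Gzmm (r = 0.776) and the haemoglobin gene Hba-a1 (r = 0.759). Within tissues the values were 0.67 in brain and 0.57 in blood for Ndufa11, 0.11 and 0.42 for Gzmm, and 0.54 and -0.04 for Hba-a1. For Xcl1 they were Fermt3 (r = 0.828), Dusp2 (r = 0.821) and Wbp1 (r = 0.799). Dusp2, a nuclear phosphatase of activated lymphocytes, had 0.71 within brain and 0.35 within blood, Fermt3 0.43 and 0.85, and Wbp1 -0.06 and 0.76. For Ccl4 they were Rbms1 (r = 0.741), Slirp (r = 0.722) and Tceb2 (r = 0.716), with 0.73, 0.51 and 0.72 within brain and 0.75, 0.94 and 0.83 within blood. The values near 0 were those of Gzmm in brain, Hba-a1 in blood and Wbp1 in brain.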

How the data were processed

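The authors deposited raw counts, whole numbers for each gene in each library. Tools and build, per the submitters' processing notes and with no role or order stated, were Bowtie2 (2.2.2), HTSeq (0.11.2), FastQC, DESeq2 and GRCm38. Annotation release, strand setting and use of molecular identifiers were not given in the sources used here. Per the labels' protocols, brain and blood were prepared differently. No label gives a batch. The 6 genes, the gene lists and the tests were chosen with earlier results of these data known.

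The test was edgeR (4.0.16, R 4.3.3) on the deposited counts: TMM scaling, filterByExpr (about 117 CPM in at least 3 libraries), which kept 2366 of 13539 genes with a count, and robust quasi-likelihood F tests that fitted the 4 groups in 17 libraries together. Benjamini-Hochberg adjustment ran within each comparison, and an adjusted p under 0.05 was a call. A standard error is the absolute log2 fold change divided by the root of F. CPM are on library totals, CPM per kb use the principal coding transcript of GENCODE M21, and log2 CPM for likeness used a prior count of 2. For Ccl3 and Cxcl10, CPM were compared with an exact two-sided permutation test. Same-group libraries differed beyond sampling noise in all 29 pairs (chi-square per degree of freedom of 2.59 or more), so none was treated as a copy of another. Each library counted once, although the check cannot tell whether libraries share an animal. Intervals on single libraries are exact binomial (Clopper-Pearson) intervals at 95%. The steps were tested on simulated data.

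Named genes were the 6 ligands, up to 4 genes from each list (genes called, or else the most abundant) and the 3 tested genes most like each tested ligand. Ccl1, Ccl6, Ccl9, Ccl27a, Pf4, Ppbp and Xcr1, which are below the filter, and Gzma and the marker genes given with values were named after their values were seen. Some items are not reported here. Alternatives were RLE size factors, scaling without abundant families and the ligands, 2 other filters, DESeq2 (1.42.0), limma voom (limma 3.58.1), only the groups compared, sex as a term, female libraries only and each library left out. The female fit had a lone library for each APP-PS1 tissue, so its calls and counts of called genes say little. Thinning to 27646 counts and leaving out both libraries that stood apart, and the unfiltered list counts, were added after the data were seen. Figures used matplotlib (3.10.9).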

Additional observations from a re-analysis of the deposited data

Results flagged for a closer look

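Of 21 sets of values examined, each from a group with 4 or 5 libraries, 2 held a library far from the rest. Chance gives about 1 in 20. Xcl1 in WT brain replicate 4 stood at 622 CPM while the other 4 libraries of that group held 352 to 395 CPM; its gap to the nearest library was 0.841 of the group's range, above Dixon's 95% critical value for 5 libraries. Cxcl10 in APP-PS1 brain replicate 4 stood at 110 CPM, against 0 to 17.8 CPM in the other 3 libraries, with a gap of 0.838 of the range that is likewise above Dixon's value for 4 libraries. The same library held the 11 counts of Ccl1.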

How the results depend on the processing

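No paired analysis was possible because no label gives groups shared replicate numbers or links a brain and a blood library. The WT calls of Ccl5 and Xcl1 between brain and blood held under every alternative that gave a value, at -1.19 to -1.06 for Ccl5 and 2.10 to 2.44 for Xcl1, and with each library left out, at -1.21 to -1.01 and 2.09 to 2.64. Xcl1 had no value after thinning or, between strains, in the blood libraries alone, since it fell under the filter there. With the main filter Xcl1 was tested through brain, where it is high. Ccl5 between APP-PS1 and WT blood became a call without a filter (-1.10), with 5 CPM in 3 libraries (-1.10), with voom (-0.84) and after thinning (-0.76). Xcl1 between brain and blood in APP-PS1 became one with DESeq2 (2.13) and without both libraries that stood apart (2.27), and ranged from 1.71 to 3.64 with each library left out, where the loss of APP-PS1 blood replicate 2 made it a call. Ccl5 averaged over strains lost its call with female libraries only (-0.54), a fit with a lone library for each APP-PS1 tissue. The causes were not tested.

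Signs that turned belonged to values that were not called. The fit with females only had a lone library for each APP-PS1 tissue. Ccl5 between strains in brain became 0.084 with sex as a term and 0.31 with females only, and between brain and blood in APP-PS1 it became 0.054 with females only. With females only, Ccl4 became 1.26 (brain against blood, APP-PS1), 0.13 (APP-PS1 against WT, brain), 0.53 (averaged) and 1.45 (strain by tissue), and Xcl1 strain by tissue 1.17. After thinning, Ccl4 became 0.072 (APP-PS1 tissues), 0.010 (averaged) and 0.12 (strain by tissue). Strain by tissue, Ccl4 also became 0.16 without a filter, 0.15 with 5 CPM, and 0.30 without both libraries, where Xcl1 became 0.17. With each library left out, Ccl4 ranged from -0.58 to 0.23 between WT tissues, from -0.61 to 0.0036 averaged and from -0.88 to 0.34 strain by tissue. Xcl1 ranged from -1.79 to 0.17 between strains in blood and from -0.61 to 1.34 strain by tissue. In CPM, Cxcl10 ranged from -14.5 to 34.8 between APP-PS1 tissues, from -16.2 to 20.3 between strains in brain and from -11.9 to 24.6 in blood, and Ccl3 from -16.1 to 62.7 between strains in blood and from -13.2 to 16.5 between WT tissues.

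Counts of called genes moved too. Between APP-PS1 tissues 13 genes became 21 with DESeq2 (which gave 1284 genes no adjusted p), 7 with voom, 4 with females only, and 8 to 22 with each library left out (8 without blood replicate 2 and 22 without blood replicate 3). Between WT tissues 18 became 10 with voom and 7 after thinning. Between strains in blood 1 became 5 without a filter, 7 with 5 CPM, 3 with voom and after thinning, 4 with only the groups compared and without both libraries, 0 with sex as a term and females only, and 0 to 3 with each library left out. Averaged, 62 became 38 with voom and 18 with females only and after thinning. Strain by tissue, 1 became 0 with DESeq2, voom, females only and thinning, and 0 to 1 with each library left out. Depth limits Ccl3, Cxcl10 and Cxcl16 most: in the shallowest library 3 counts already equal 109 CPM.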

Other observations

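Chemokine receptors beyond those listed for the 6 ligands were also counted. Of 15 such genes 3 were tested: Ccr7, the receptor for lymph node homing, Ccr2, a receptor of inflammatory leukocytes, and Cxcr4, the receptor for CXCL12. Ccr7 averaged 24.8 ± 12.9 CPM in APP-PS1 brain (SD, n = 4 libraries) against 503 ± 119 CPM in APP-PS1 blood (SD, n = 3 libraries), and 19.2 ± 7.51 CPM in WT brain against 79.0 ± 38.0 CPM in WT blood (SD, n = 5 libraries each). Between brain and blood Ccr7 had a log2 fold change of -4.47 in APP-PS1 (SE 0.68, edgeR adjusted p = 1.21e-05) and of -1.95 in WT (SE 0.58, edgeR adjusted p = 0.106). In APP-PS1 it was -4.59 in DESeq2, which gave it no adjusted p. With female libraries only, a lone library for each APP-PS1 tissue, it was -4.61 and not called. Ccr7 averaged over 117 CPM, the level of the filter, in APP-PS1 blood only, so it was tested through the group where it is high, and its values are a description. In APP-PS1 blood against WT blood it had 2.54 (SE 0.51, edgeR adjusted p = 0.0169), the 1 gene called there. With sex as a term it had 2.33 (edgeR adjusted p = 0.539) and without a filter 2.26 (edgeR adjusted p = 0.100). With 5 CPM in 3 libraries it had 2.27 (edgeR adjusted p = 0.0641) and after thinning 3.26 (edgeR adjusted p = 0.0597). With female libraries only, a lone library in APP-PS1 blood, it had 2.31. None of these was a call. The call was also lost in 7 of 17 fits that each left out 1 library, namely those without any one of the 3 APP-PS1 blood libraries or without WT blood replicate 1, 2, 3 or 5 (adjusted p up to 0.268). Ccr2 had -3.34 in that comparison (edgeR adjusted p = 0.125) and Cxcr4 0.07 (adjusted p = 0.985).

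Ccl27a, a skin-associated CC ligand, had counts in all 10 WT libraries and in none of the 7 APP-PS1 libraries. The share of all genes with this pattern is not given here. Pooled totals were lower in APP-PS1, with 297018 counts in brain and 126493 in blood, against 522178 and 595238 in WT. A gene with few counts is thus more easily missed in APP-PS1. WT brain held 4, 4, 2, 2 and 6 counts and WT blood 2, 1, 4, 2 and 3 counts, while APP-PS1 brain and APP-PS1 blood held 0. A count of 0 allows up to 10.1 CPM pooled over APP-PS1 brain and 23.7 CPM over APP-PS1 blood. Its reads may be shared with near-identical copies of the gene, so the value is uncertain, and it was picked after the values were seen and has no test.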
